A study of Caenorhabditis elegans with 24 samples.

Results

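The flp and nlp genes of C. elegans encode neuropeptide precursors, and their transcripts were followed here in worms that lack or carry the transcription factor PQM-1, with and without cobalt chloride (CoCl2), a salt used to mimic low oxygen. Members were all genes whose symbol starts with flp- or nlp-, whatever their values. Of 109 such genes in the RefSeq gene table, 103 had a probe among the 25616 genes of the array. The 8 genes nlp-27 to nlp-34, antimicrobial peptides of the epidermis, were set apart, which left 95 neuropeptide members (29 flp and 66 nlp). After a filter on dim probes, 92 of them were tested at 6 h (28 flp and 64 nlp) and 91 at 20 h (28 flp and 63 nlp), together with all 8 epidermal genes. No probe was matched to flp-4, flp-34, nlp-52, nlp-58, nlp-78 or nlp-119. The probes of flp-32, nlp-22 and nlp-67 did not pass the filter at either time, and nlp-60 passed at 6 h only.

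RNA came from whole worms, bleach-synchronized early day 1 adults, of 2 strains: pqm-1(ok485), a loss-of-function strain that carries 1 deletion allele (the methods text writes ok435), and N2, the wild type. Each strain was taken with 5 mM CoCl2 or untreated, at 6 h or 20 h. On each of 24 two-color arrays the RNA of 2 groups was hybridized together, so that every value is a ratio. CoCl2-treated worms were set against untreated ones of the same strain (pqm-1 or wild type), and pqm-1 was set against wild type, either both with CoCl2 or both without, each on 3 arrays of separate biological replicates per time. Ratios are given as log2, the mean of 3 arrays, positive where the first-named group was higher. The standard error (SE) of each mean was taken from a joint fit to all arrays of the same time. Its variance is pooled over the comparisons of that time, so that it does not give the spread of the 3 arrays alone. In whole-worm RNA a change in the number of peptide-making cells and a change in the RNA of each cell cannot be told apart.

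Neuropeptides are cut from larger precursors, amidated and packed into dense-core vesicles, from which neurons, and in some cases the intestine or the epidermis, release them to act on G protein-coupled receptors. In C. elegans the flp genes encode FMRFamide-like peptides, and the nlp genes encode a mixed group of other peptides. Members of both families set locomotion, feeding, egg laying and sleep, and several of them act when worms are stressed. PQM-1 is a zinc finger transcription factor that controls growth and stress genes.

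The direction of each ratio followed the strain and treatment fields of the labels. The source names of the channels give the opposite dyes on 11 of 24 arrays, whereas the authors' own table of ratios has the sign of the fields on 24 of 24. Oriented by the fields, replicate arrays correlated with r between 0.674 and 0.961 when set against each other gene by gene, and genes are no independent points. With the dyes of the source names, 0 neuropeptide members passed the threshold in any comparison. The 24 arrays lay on 7 slides, and 5 of the 8 comparisons lay on a single slide each. Between 69.0% and 92.1% of probes per array stood above background, and 77 of the neuropeptide members did so in both channels on all 24 arrays. The pqm-1 probe was lower in untreated pqm-1 than in untreated wild type, with log2 -2.44, -2.27 and -2.10 at 6 h and -1.57, -1.36 and -1.43 at 20 h. With CoCl2 the same probe stood at -0.04 at 6 h and 0.19 at 20 h between the strains, while with CoCl2 against untreated worms it rose by 2.69 at 6 h and 3.16 at 20 h in pqm-1 and by 0.77 at 6 h and 1.98 at 20 h in wild type. In the libraries labelled pqm-1 with CoCl2 the probe thus stood at the level of wild type with CoCl2. It does not bear that label out, and every direction drawn from those libraries below rests on the label. Where the probe lies relative to the deletion is not given in the sources used here. In untreated worms the probe was lower in pqm-1 on every array, so that it did tell the strains apart there. The treated strains differed in 19.6% of all genes at 6 h and 37.3% at 20 h. Array means of 8 sperm genes in pqm-1 against wild type at 6 h lay between 2.52 and 3.33 without CoCl2 and between 2.49 and 3.37 with it. The label was not tested further.

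A gene was called at a limma p below 0.01 after Benjamini-Hochberg adjustment across the whole array. By this rule 78 of the 92 neuropeptide members were called in at least 1 of the 8 comparisons. The matching share of all genes was not counted, so that this number is no trait of the members. Single comparisons called between 4.24% and 37.3% of all genes. Every called member had the same sign on all arrays of its comparison. The threshold itself makes this likely, so that it is no separate check of the calls. The 20 h responses to CoCl2 held most of the calls, while the untreated strains differed in few members.

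**Figure D1:**
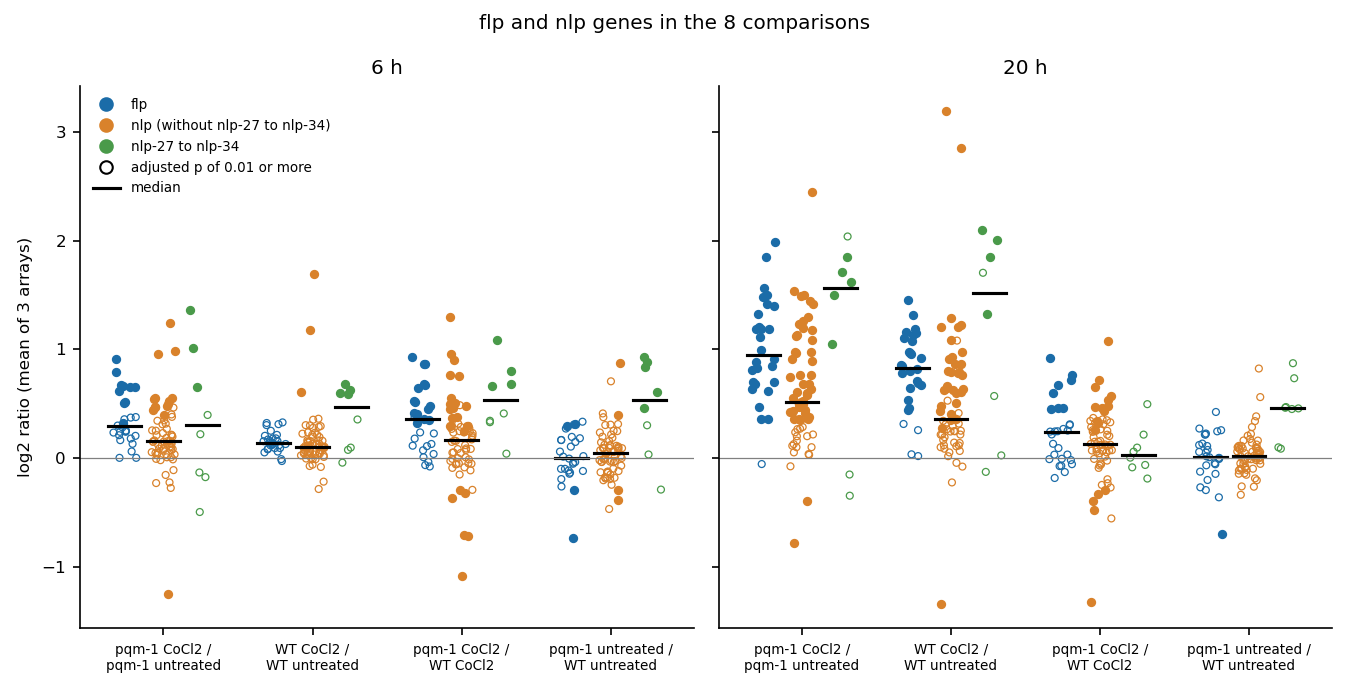
Log2 ratio (mean of 3 arrays) of each flp gene, nlp gene and epidermal gene nlp-27 to nlp-34 in the 4 comparisons at 6 h and 20 h; filled points have an adjusted p below 0.01 and black lines are medians. At 20 h the medians of the flp genes stood at 0.95 in pqm-1 and 0.83 in wild type.

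After 6 h of CoCl2 limma called more neuropeptide genes in pqm-1 mutants than in wild type. Significance analysis of microarrays (SAM), the type of test named in the study's methods, called 3 in pqm-1 and 2 in wild type. It was computed anew here from the 3 arrays of each comparison. The number of all genes that it called is not given here, so that these counts do not rank the strains. In pqm-1, 23 members rose and 1 fell, where 10.9% of all genes were called (6.07% higher and 4.83% lower), and the median of all 92 was 0.21. In wild type 3 rose and 0 fell, where 4.24% of all genes were called (2.56% higher and 1.68% lower), with a median of 0.12, so that the share of members called (3.26%) lay below that of all genes. The median over all genes tested was -0.01 in pqm-1 and -0.00 in wild type. In pqm-1 the rises covered 10 of 28 flp genes. In wild type 0 of 28 flp genes passed, although 11 had an unadjusted p below 0.05 and 26 of 28 were above zero. Of all 22067 genes tested, 2862 had an unadjusted p below 0.05 and 10993 were above zero.

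The largest rises in pqm-1 at 6 h were those of nlp-25 (1.24, SE 0.10), nlp-2 (0.99, SE 0.11), nlp-51 (0.96), flp-18 (0.91, SE 0.12) and flp-3 (0.79, SE 0.10). The product of nlp-2 acts through a receptor of the gonadotropin-releasing hormone type, flp-18 encodes ligands of NPR-1, NPR-4 and NPR-5, and flp-3 is known from male mating behavior. The 1 fall was that of nlp-24, an opioid-like peptide gene of starved worms, with log2 -1.25 (adjusted p = 1.09e-06). In wild type the 3 rises were nlp-4 (1.70, SE 0.11), nlp-25 (1.18, SE 0.10) and nlp-66 (0.61), and nlp-66 lost its call without replicate 2 (0.51, adjusted p = 0.0108). The count in pqm-1 fell to 15 without replicate 1, fell to 2 (1 up and 1 down) when arrays were centered on their median in place of loess, and reached 46 with the slide as a fixed block. The count in wild type reached 11 with the slide as a random block.

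After 20 h of CoCl2 most neuropeptide genes were higher in both strains. In pqm-1, 72 of 91 members rose and 2 fell, where 35.2% of all genes were called (22.8% higher and 12.4% lower). In wild type 55 rose and 1 fell, where 15.9% of all genes were called (8.98% higher and 6.93% lower). The median of the 91 was 0.68 in pqm-1 and 0.60 in wild type, against -0.01 over all genes tested in both. The flp genes moved together: 27 of 28 rose in pqm-1 (median 0.95) and 24 of 28 in wild type (median 0.83). Among these rises the probes of 1 gene could disagree. In pqm-1 the 11 probes of flp-12 ran from -0.46 to 1.66 and the 8 probes of flp-8 from -0.06 to 1.39. Among nlp genes 45 of 63 rose in pqm-1 (median 0.51) and 31 of 63 in wild type (median 0.36). Of the 55 members that rose in wild type, 54 also rose in pqm-1, which is 98.2% of the wild-type list and 75% of the pqm-1 list.

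The size of the wild-type count depended on the array normalization. With median centering in place of loess, 8 wild-type members were called (7 up and 1 down), and with the slide as a fixed block 35 were. Centering gave wild type a median of 0.39 with a median SE of 0.18, against a median SE of 0.09 with loess. In pqm-1, 53 members were still called under that setting.

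The strongest rise in either strain was that of nlp-39 in wild type at 20 h. Its log2 ratio to untreated worms was 1.02, 1.82 and 0.86 in pqm-1 (mean 1.23, SE 0.16), against 3.54, 2.97 and 3.08 in wild type (mean 3.20, SE 0.16), a 9.17-fold rise in wild type. The ranges of the strains did not overlap, with each wild-type array above each pqm-1 array. At 6 h nlp-39 stood at 0.60, 0.80 and 0.24 in pqm-1 and at 0.17, 0.32 and -0.00 in wild type, with a mean of 0.55 in pqm-1 and 0.16 in wild type and overlapping ranges.

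Second came nlp-25. At 20 h its arrays gave 2.04, 3.14 and 2.16 in pqm-1 (mean 2.44) and 2.69, 3.81 and 2.07 in wild type (mean 2.86), and the ranges of the strains overlapped. At 6 h they gave 1.44, 1.22 and 1.06 in pqm-1 and 1.08, 1.48 and 0.97 in wild type. With nlp-66, it was 1 of 2 neuropeptide members that rose in both strains at both times. It also differed between the untreated strains at 6 h, with 0.74, 1.05 and 0.83 (mean 0.87, adjusted p = 3.27e-05), all 3 arrays being higher in pqm-1.

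Among the flp genes the largest rises were those of flp-18 and flp-14. On the 20 h arrays flp-18 read 2.03, 1.98 and 1.95 in pqm-1 (adjusted p = 3.36e-07), against 1.27, 1.59 and 1.09 in wild type (adjusted p = 1.81e-05). For flp-14 the values were 1.66, 1.86 and 2.02 in pqm-1 and 1.53, 1.77 and 1.08 in wild type. Every pqm-1 array lay above every wild-type array for flp-18, while the ranges overlapped for flp-14. Neither gene passed the limma test of a strain difference in the effect of CoCl2 at 20 h. That difference was 0.67 for flp-18 (adjusted p = 0.0316) and 0.39 for flp-14 (adjusted p = 0.170).

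The next largest rises of pqm-1 at 20 h were those of flp-9, nlp-2, nlp-15, flp-3 and nlp-71. For flp-9 the arrays read 1.83, 1.44 and 1.43 in pqm-1 and 1.05, 1.24 and 1.18 in wild type. For nlp-2 the arrays read 1.60, 1.81 and 1.20 in pqm-1 and 1.03, 1.12 and 0.59 in wild type, and for flp-3 they read 1.75, 1.66 and 1.08 in pqm-1 and 0.68, 1.09 and 0.81 in wild type. The ranges of the strains were apart for flp-9 and nlp-2, and for flp-3 the lowest pqm-1 array lay just under the highest wild-type array. For nlp-15 the values were 1.82, 0.97 and 1.73 in pqm-1 and 1.18, 0.49 and 0.93 in wild type, and for nlp-71 they were 1.77, 1.45 and 1.26 in pqm-1 and 1.16, 1.64 and 0.83 in wild type. In nlp-15 and nlp-71 the ranges overlapped. None of flp-9, nlp-2, flp-3, nlp-15 and nlp-71 passed the test of a strain difference in the effect of CoCl2 at 20 h. In wild type the next largest after flp-18 were nlp-21 (1.44 in pqm-1 and 1.28 in wild type) and nlp-66 (1.08 in pqm-1 and 1.22 in wild type).

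Values follow for members with a known role, chosen with the results known and not as a list with a test. Of the genes of stress-induced sleep made in the ALA neuron, flp-13 rose to 0.68 in pqm-1 and 0.46 in wild type at 20 h, flp-24 to 0.99 in pqm-1 and 0.67 in wild type, and nlp-8 to 1.19 in pqm-1 and 0.65 in wild type. The sleep peptide gene flp-11, made in the RIS neuron, stood at 1.12 in pqm-1 and 0.98 in wild type. None of these 4 genes was called in either strain at 6 h.

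The locomotion gene flp-1, made in the AVK neurons, was at 1.40 in pqm-1 and 1.15 in wild type at 20 h. The arousal gene nlp-49 reached 1.42 in pqm-1 and 1.20 in wild type, and flp-5, which excites the pharynx, reached 1.33 in pqm-1 and 1.10 in wild type. Of the ligand genes of the egg-laying receptor EGL-6, flp-17 stood at 1.19 in pqm-1 and 0.82 in wild type and passed in both strains, while flp-10 passed in pqm-1 (0.36) and not in wild type (0.26). The egg-laying gene nlp-3 of the HSN neurons was at 1.14 in pqm-1 and 0.86 in wild type. The gut peptide gene nlp-40, which times defecation, passed in pqm-1 (0.50) and not in wild type (0.14), and flp-2, which the gut releases in oxidative stress, passed in both (0.91 in pqm-1 and 0.80 in wild type).

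Few members went down. At 20 h nlp-24 fell to -0.78 in pqm-1 (adjusted p = 0.00722) and to -1.34 in wild type (adjusted p = 0.000413), and in pqm-1 it lost the call without any 1 of the 3 arrays, with values between -0.82 and -0.73. Per array it read -0.87, -0.70 and -0.76 in pqm-1 and -1.58, -0.54 and -1.90 in wild type, so that wild-type replicate 2 stood apart from the other wild-type arrays. In pqm-1 nlp-56 also fell (-0.39), and it lost the call without replicate 1 (-0.33, adjusted p = 0.0318) or replicate 2 (-0.35, adjusted p = 0.0244).

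Of 17 genes of peptide processing and release, 10 were higher at 20 h in each strain and 0 lower, where 22.8% of all genes were higher in pqm-1 and 8.98% in wild type; at 6 h 7 were higher in pqm-1 and 0 in wild type. The amidation enzyme genes pgal-1 and pghm-1 stood at 1.77 and 1.45 in pqm-1 and at 1.45 and 1.21 in wild type at 20 h. The proprotein convertase gene egl-3 was at 0.95 in pqm-1 and 0.76 in wild type, its chaperone gene sbt-1 at 1.48 in pqm-1 and 1.25 in wild type, and the carboxypeptidase gene egl-21 at 1.24 in pqm-1 and 0.99 in wild type. The dense-core vesicle gene ida-1 reached 0.93 in pqm-1 and 0.73 in wild type. By contrast pamn-1, an amidation enzyme made by another gene, gave 0.19 in pqm-1 and -0.12 in wild type, and unc-31, which primes vesicle release, gave 0.13 in pqm-1 and -0.18 in wild type, neither past the threshold.

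Of 7 peptide genes outside both families, 6 rose in pqm-1 and 5 in wild type at 20 h, among them pdf-1 (1.80 in pqm-1 and 1.15 in wild type), which acts in locomotor arousal, and the vasopressin-like ntc-1 (1.18 in pqm-1 and 0.68 in wild type). Of 84 peptide receptor genes tested at 20 h, 12 were higher and 3 lower in pqm-1, and 2 were higher and 1 lower in wild type, smaller shares of higher genes than the 22.8% in pqm-1 and 8.98% in wild type among all genes. Their median was 0.10 in pqm-1 and -0.00 in wild type. Of 14 pan-neuronal genes, 7 were higher and 2 lower in pqm-1 (median 0.22), and in wild type 1 was higher, snb-1 (0.33), with a median of 0.09. The mean of the pan-neuronal genes on each array lay between 0.13 and 0.19 in pqm-1 and between -0.00 and 0.16 in wild type.

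Marker genes of other tissues moved in the same worms. At 20 h 8 of 8 sperm genes were higher in pqm-1 and 7 of 8 in wild type, with array means between 2.42 and 2.64 in pqm-1 and between 0.86 and 2.83 in wild type. Of 10 oocyte and embryo genes 8 were lower in pqm-1, while 2 were higher in wild type. The 7 intestine genes had array means between -0.74 and -0.23 in pqm-1 and between -0.72 and -0.40 in wild type, though 4 were higher and 3 lower in pqm-1 and 2 higher and 4 lower in wild type. The 5 muscle genes had array means between -0.05 and 0.63 in pqm-1 and between 0.28 and 0.44 in wild type. Their part in the ratios of the peptide genes was not tested.

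**Figure D2:**
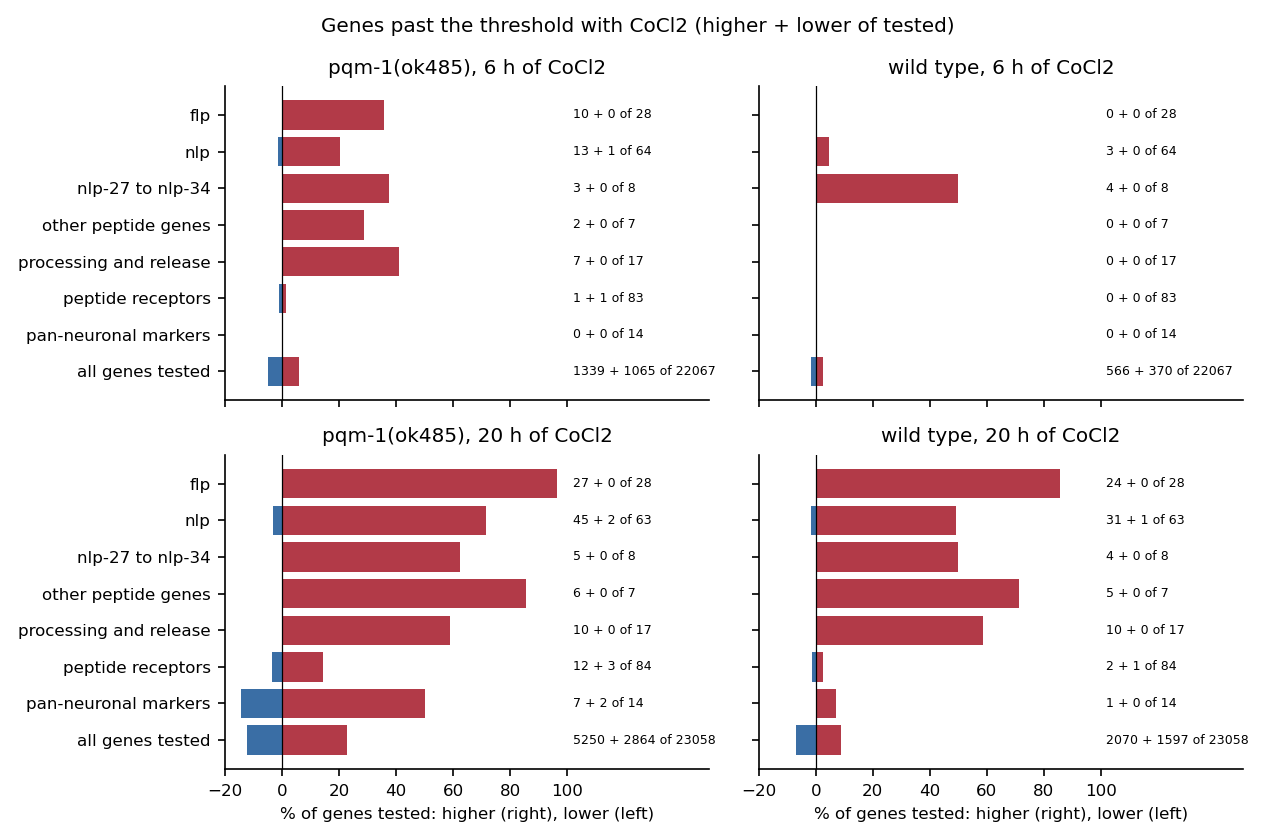
Share of the genes tested that were higher (red, right) or lower (blue, left) with CoCl2 at an adjusted p below 0.01, for flp, nlp and epidermal genes, other lists and all genes, in pqm-1 (left panels) and wild type (right panels) at 6 h (top) and 20 h (bottom). At 20 h 27 of 28 flp genes were higher in pqm-1 and 24 of 28 in wild type, and of 84 receptor genes 12 were higher in pqm-1 and 2 in wild type.

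The difference between the responses at 20 h and 6 h was tested itself. The arrays of the 2 times lay almost wholly on different slides, so that time and slide cannot be told apart in it. In pqm-1, 38 of 91 members had a higher ratio at 20 h than at 6 h and 0 a lower one, where 16.9% of all genes were called (14.1% higher and 2.84% lower). In wild type 33 were higher and 2 lower, where 6.06% of all genes were called (3.34% higher and 2.72% lower). The flp genes made up 22 of the 38 in pqm-1 and 18 of the 33 in wild type. In wild type the ratio of nlp-39 was larger at 20 h by 3.03, that of nlp-25 by 1.68, that of flp-14 by 1.29 and that of flp-18 by 1.07. The 2 members with a smaller ratio at 20 h in wild type were nlp-4 (-1.43) and nlp-24 (-1.12). Of the members called in pqm-1, nlp-25 (1.21), flp-14 (1.17) and nlp-20 (1.11) grew most. The difference between the treated strains changed from 6 h to 20 h in 6 members, 4 upward and 2 downward, where 18.2% of all genes were called (11.9% upward and 6.31% downward), against 6.59% of the members. That between the untreated strains changed in 0 (limma, 2 at an unadjusted p below 0.05), where 0.257% of all genes were called (0.0779% upward and 0.179% downward). With median centering in place of loess these tests called 1 member in pqm-1 and 2 in wild type.

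Without CoCl2 few members differed between the strains. At 6 h 4 members were higher in pqm-1 and 4 lower than in wild type, where 13.8% of all genes were called (10.5% higher and 3.24% lower). At 20 h 0 were higher and 1 lower, where 4.35% of all genes were called (3.10% higher and 1.26% lower). The share of members called was 8.70% at 6 h and 1.10% at 20 h, below that of all genes at both times. At 20 h 19 members had an unadjusted p below 0.05, and SAM called 3 higher and 1 lower. The median of the members was 0.02 at both times. The 4 higher at 6 h were nlp-25 (0.87), nlp-12 (0.39), a cholecystokinin-like gene of locomotion, flp-14 (0.32) and flp-1 (0.29). The 4 lower were flp-3 (-0.74), nlp-79 (-0.39), flp-7 (-0.30), whose peptide drives fat loss, and nlp-5 (-0.30). Of these 8, flp-1, nlp-5 and nlp-12 lost the call without any 1 of the 3 arrays, flp-14 lost it without replicate 1 (0.29) or 3 (0.25), and flp-7 lost it without replicate 1 (-0.30) or 2 (-0.22). The count at 6 h was 3 without replicate 1, 5 without replicate 2 and 4 without replicate 3. With the scanner software's own ratio the split was 3 higher and 10 lower, and that ratio moved the median of all genes by -0.11.

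The lower level of flp-3 in untreated pqm-1 was found at both times. Its arrays read -0.78, -0.89 and -0.53 at 6 h (adjusted p = 0.000242) and -0.85, -0.64 and -0.60 at 20 h (adjusted p = 0.00671), all below zero. The 20 h call was lost without any 1 of the arrays, with values between -0.75 and -0.62. With CoCl2 flp-3 read 0.05, -0.10 and -0.18 between the strains at 6 h and 0.49, 0.33 and -0.09 at 20 h, and it passed at neither time.

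With CoCl2 the strains differed in more members, mostly toward higher levels in pqm-1. At 6 h 31 members were higher in pqm-1 and 6 lower, where 19.6% of all genes were called (14.2% higher and 5.42% lower), with a median of 0.23 against -0.00 over all genes. At 20 h 20 were higher and 5 lower, where 37.3% of all genes were called (23.7% higher and 13.6% lower), with a median of 0.15 against 0.01 over all genes, so that the share of members called (27.5%) lay below that of all genes. The flp genes were called upward in 15 of 28 cases at 6 h and 8 of 28 at 20 h, and 0 flp genes were lower at an adjusted p below 0.01 at either time. With the scanner software's ratio the splits were 17 higher and 7 lower at 6 h and 9 higher and 6 lower at 20 h, with median centering they were 7 higher and 2 lower at 6 h and 23 higher and 2 lower at 20 h. With the replicate number as a block 19 members were called at 6 h. Leaving out any 1 array gave 24 calls at 6 h, and leaving out replicate 1 gave 13 at 20 h.

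At 6 h the members highest in pqm-1 with CoCl2 relative to wild type with CoCl2 were nlp-25 (1.29), nlp-51 (0.95), flp-18 (0.93), nlp-2 (0.90) and flp-14 (0.87). The lowest were nlp-4 (-1.09), nlp-56 (-0.72), nlp-24 (-0.71), nlp-20 (-0.37) and nlp-79 (-0.32). Without replicate 2, nlp-56 (-0.64), nlp-20 (-0.34) and nlp-79 (-0.28) were no longer called, nor was nlp-56 without replicate 1 (-0.67) or nlp-20 without replicate 3 (-0.31). At 20 h the highest were nlp-4 (1.08), flp-5 (0.92), flp-18 (0.77), nlp-8 (0.72) and flp-17 (0.72), and the lowest were nlp-39 (-1.32), nlp-56 (-0.48), nlp-5 (-0.40), nlp-89 (-0.33) and nlp-88 (-0.29). Without replicate 1, nlp-56 (-0.39) and nlp-89 (-0.30) lost the call, and nlp-88 lost it without any 1 of the arrays.

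Markers of other tissues also differed between the strains. In pqm-1 with CoCl2 relative to wild type with CoCl2, 7 of 8 sperm genes were higher at 6 h and 8 of 8 at 20 h. Among all genes 14.2% were higher and 5.42% lower at 6 h, and 23.7% higher and 13.6% lower at 20 h. All 5 muscle genes were higher at both times, and 5 of 10 oocyte and embryo genes were lower at 6 h and 6 of 10 at 20 h. Array means of the cuticle and epidermal genes lay between 0.56 and 0.83 at 6 h and between 0.81 and 1.24 at 20 h. Of the 14 pan-neuronal genes 1 was higher at 6 h and 5 at 20 h. Their part in the strain differences of the peptide genes was not tested.

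**Figure D3:**
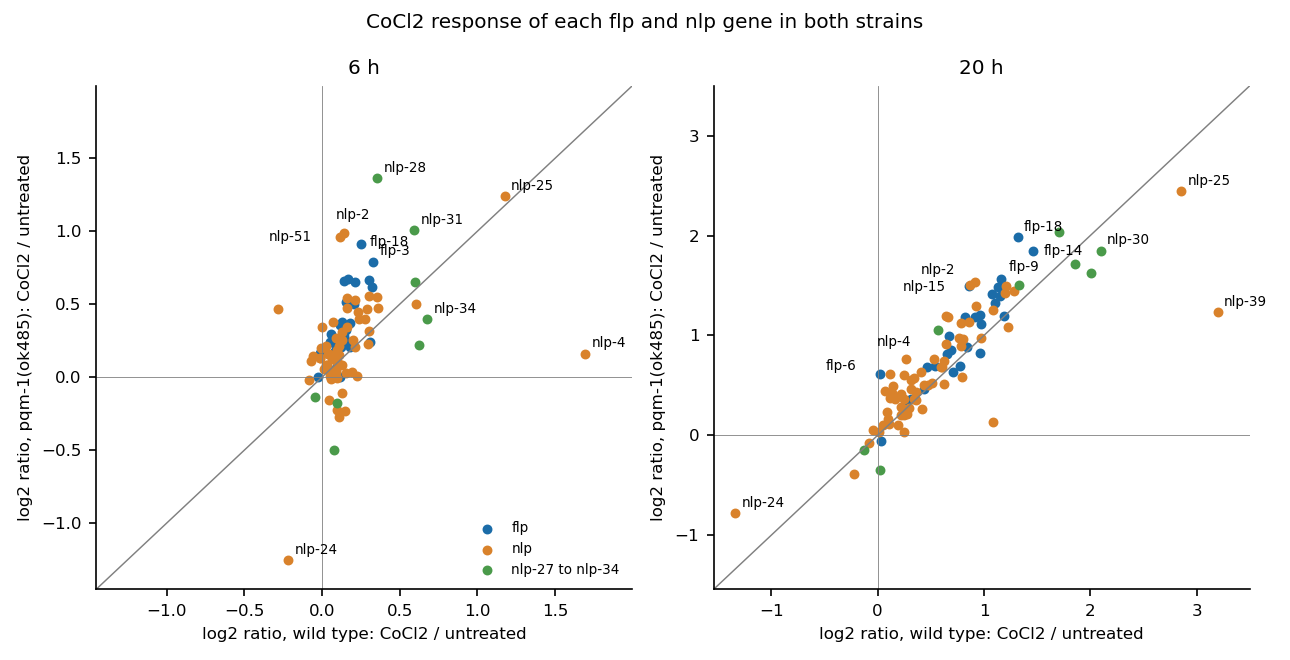
Log2 ratio of CoCl2 to untreated worms in pqm-1 (vertical axis) against wild type (horizontal axis) for each flp, nlp and epidermal gene (means of 3 arrays) at 6 h and 20 h, with the line of equal response. At 20 h 71 of 91 neuropeptide members lay above the line, where 12460 of all 23058 genes tested did. The gene nlp-39 lay far below it at 1.23 in pqm-1 and 3.20 in wild type.

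Whether the effect of CoCl2 itself differed between the strains was tested as the difference between 2 comparisons. At 6 h the strain difference with CoCl2 minus that without it was higher for 7 members and lower for 2, where 3.05% of all genes were called (1.71% higher and 1.34% lower). At 20 h the response of pqm-1 minus that of wild type was higher for 1 member, flp-6 (0.60, adjusted p = 0.00566), and lower for 1, nlp-39 (-1.96, adjusted p = 0.000196), where 8.86% of all genes were called (8.13% higher and 0.737% lower). The 2 of 91 members called at 20 h are a smaller share than that of all genes. The 7 members with a more positive effect in pqm-1 at 6 h were nlp-51 (1.14), nlp-2 (1.03), flp-5 (0.67), flp-27 (0.64), flp-33 (0.62), flp-14 (0.55) and flp-9 (0.54), and the 2 with a more negative one were nlp-4 (-1.27) and nlp-24 (-1.01). Over all 28 flp genes the difference at 6 h was above zero in 28, where 11398 of all 22067 genes tested were. The median was 0.29, against 0.01 over all genes tested.

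The same difference could be taken from the other 2 comparisons of each time, measured on other arrays, though whether these held the same RNA extracts is not given in the sources used here. At 6 h it gave -1.53 for nlp-4, -1.03 for nlp-24, 0.84 for nlp-51 and 0.51 for flp-14, all past the threshold. The values for nlp-2 (0.84, adjusted p = 0.0110), flp-27 (0.51), flp-5 (0.44), flp-9 (0.36) and flp-33 (0.30) had the same sign and did not pass. At 20 h nlp-39 stood at -1.49 and flp-6 at 0.52, both past the threshold. In all, this pair called 4 members at 6 h and 8 at 20 h, and SAM on the first pair called 23 at 6 h and 0 at 20 h. At 6 h the 2 comparisons of the first pair deviated in opposite directions on same-numbered arrays (r between -0.67 and -0.32 across genes). With the difference taken within each replicate number, 0 members passed at 6 h (limma on 3 differences, 26 at an unadjusted p below 0.05, lowest adjusted p = 0.0379 for nlp-4), 0 of all genes passed, and nlp-39 alone passed at 20 h (adjusted p = 0.00818). With 1 array left out, nlp-4, nlp-24, nlp-51 and nlp-39 stayed past the threshold in each case, whereas flp-5, flp-9, flp-14, flp-27, flp-33 and nlp-2 at 6 h lost the call in at least 1 case and flp-6 lost it without 5 of the 6 arrays (values between 0.55 and 0.62). The count at 6 h was 4 without replicate 1 and 3 without replicate 2 of the untreated strains, and 5 without replicate 1 and 3 without replicate 2 of the treated strains. At 20 h it was 6 without replicate 2 of wild type, 4 without replicate 3 of pqm-1 and 1 without any other array. With median centering 0 members passed at 6 h, where 9 did with loess, and nlp-39 alone passed at 20 h.

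For nlp-4 the sign of the treated strain difference changed between the times. At 6 h CoCl2 gave 0.29, 0.11 and 0.09 in pqm-1 (mean 0.16), against 1.75, 1.54 and 1.80 in wild type (mean 1.70, SE 0.11), and the direct comparison of the treated strains read -1.13, -0.72 and -1.41. All wild-type arrays were far above all pqm-1 arrays. At 20 h CoCl2 gave 1.05, 0.80 and 0.44 in pqm-1 and 0.17, 0.48 and 0.14 in wild type, and the treated strains differed by 1.43, 1.08 and 0.72, in favor of pqm-1. The change of the treated strain difference from 6 h to 20 h was 2.16, while the strain difference in the effect of CoCl2 at 20 h did not pass (0.50, adjusted p = 0.111). Without CoCl2 nlp-4 stood at 0.19 at 6 h and 0.34 at 20 h and passed at neither time.

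For nlp-24 and nlp-51 the strains parted at 6 h. With CoCl2 nlp-24 read -1.08, -1.19 and -1.49 in pqm-1, against -0.05, -0.22 and -0.38 in wild type, and the ranges did not overlap. For nlp-51 the arrays read 1.14, 1.12 and 0.62 in pqm-1, against 0.11, 0.09 and 0.15 in wild type. For nlp-2 they read 1.02, 1.35 and 0.59 in pqm-1, against 0.05, 0.20 and 0.18 in wild type. At 20 h nlp-51 was at 0.58 in pqm-1 and 0.79 in wild type, and the strain difference in the effect was not past the threshold (-0.21, adjusted p = 0.586).

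**Figure D4:**
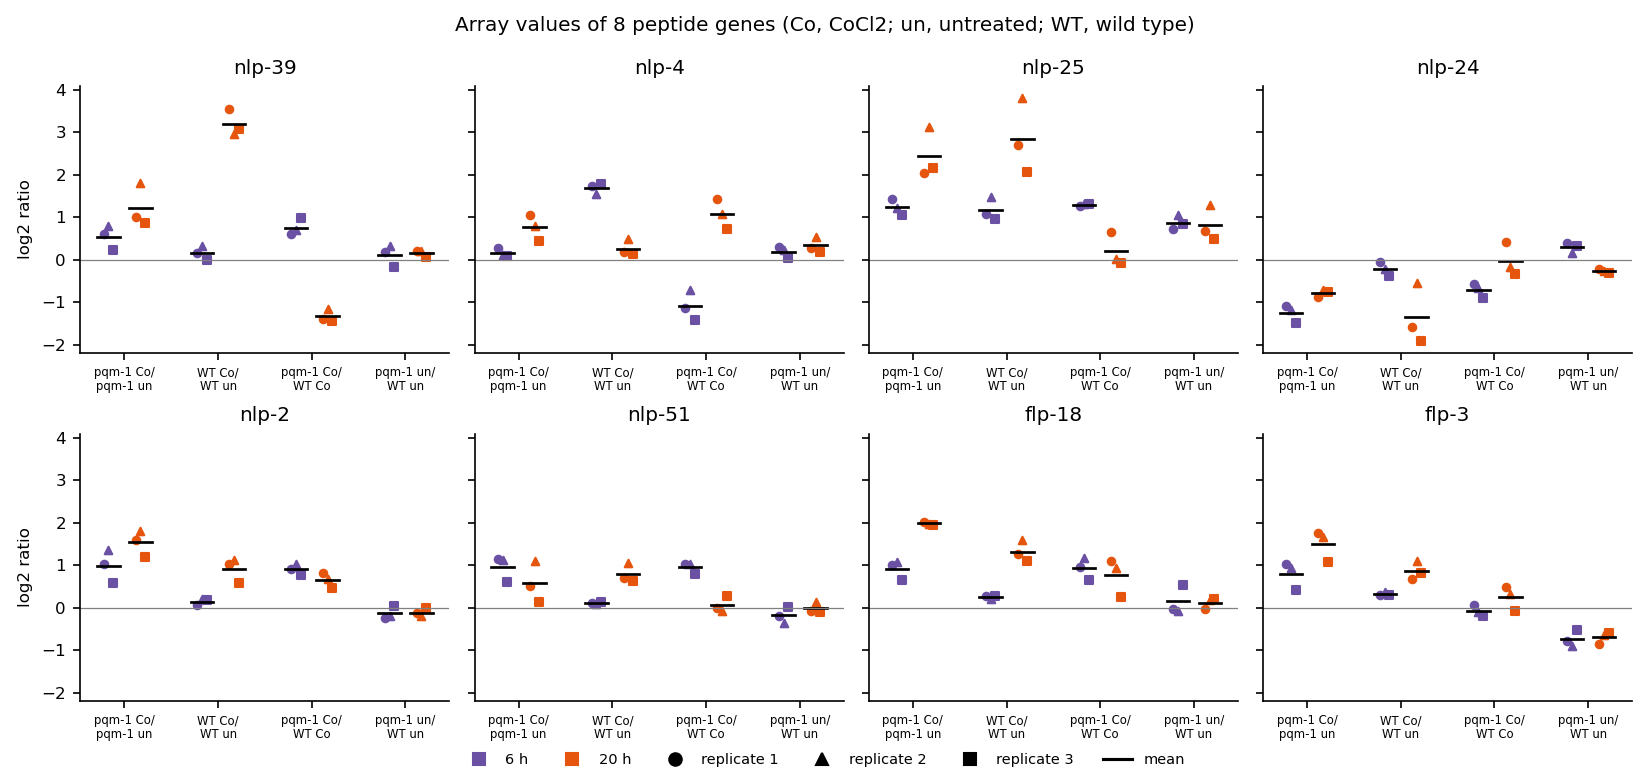
Log2 ratio on each array for nlp-39, nlp-4, nlp-25, nlp-24, nlp-2, nlp-51, flp-18 and flp-3 in the 4 comparisons at 6 h (purple) and 20 h (orange); symbols mark replicates 1 to 3 and lines the means. For nlp-4 the treated strains lay between -1.41 and -0.72 at 6 h and between 0.72 and 1.43 at 20 h.

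The epidermal genes nlp-27 to nlp-34 encode antimicrobial peptides that fungal infection and wounding induce. Of these 8 genes, nlp-27, nlp-28, nlp-29, nlp-30, nlp-31 and nlp-34 neighbor each other on chromosome V, and they encode similar peptides, so that cross-hybridization between their probes is possible and was not tested. With CoCl2 3 of 8 rose in pqm-1 (6.07% of all genes) and 4 of 8 in wild type (2.56%) at 6 h, and 5 of 8 rose in pqm-1 (22.8%) and 4 of 8 in wild type (8.98%) at 20 h. With median centering 0 of 8 passed in either strain at 6 h, and with the replicate number as a block 2 passed in pqm-1 and 0 in wild type. Without CoCl2, 5 of 8 were higher in pqm-1 than in wild type at 6 h (10.5% of all genes) and 0 passed at 20 h (4.35% called either way), where 3 had an unadjusted p below 0.05 and SAM called 5. With CoCl2, 4 of 8 were higher in pqm-1 than in wild type at 6 h (14.2% of all genes) and 0 passed at 20 h (37.3% called either way), where 1 had an unadjusted p below 0.05 and SAM called 1. Of 13 cuticle and epidermal genes, 7 were higher and 1 lower in pqm-1 than in wild type without CoCl2 at 6 h (array means 0.99, 0.90 and 0.87), and 6 were higher and 0 lower with CoCl2 (array means 0.83, 0.70 and 0.56). Their part in the strain differences of the epidermal nlp genes was not tested.

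At 6 h the members of the cluster did not act alike. With CoCl2 nlp-28 read 1.39, 1.55 and 1.16 in pqm-1, against 0.25, 0.45 and 0.37 in wild type, and its strain difference in the effect was 1.09, the 1 epidermal gene to pass that test. For nlp-31 the arrays read 1.07, 1.18 and 0.77 in pqm-1 and 0.32, 0.71 and 0.74 in wild type. For nlp-30 they read 0.25, 0.09 and 0.32 in pqm-1, against 0.44, 0.81 and 0.63 in wild type, and this gene was already higher in untreated pqm-1 than in untreated wild type (0.63, 1.02 and 0.87). The same held for nlp-27 (0.89), nlp-34 (0.93), nlp-31 (0.60) and nlp-33 (0.46) in the untreated strains. With CoCl2 at 6 h nlp-27 read -0.24, -0.46 and -0.79 in pqm-1 and 0.14, 0.04 and 0.05 in wild type, past the threshold in neither. In wild type the calls of nlp-29, nlp-31 and nlp-34 at 6 h were each lost with 1 array left out (nlp-29 between 0.54 and 0.71, nlp-31 between 0.52 and 0.73, nlp-34 between 0.47 and 0.82). So was that of nlp-29 in pqm-1 without replicate 1 (0.67) or 2 (0.53). In the untreated strains nlp-31 lost the call without replicate 2 (0.46) and nlp-33 without replicate 1 (0.37) or 2 (0.41).

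At 20 h the level in wild type rested on 1 array. Under CoCl2 nlp-30 read 1.80, 2.06 and 1.68 in pqm-1, against 1.52, 3.81 and 0.96 in wild type, and nlp-29 read 1.51, 1.96 and 1.66 in pqm-1, against 1.18, 3.44 and 0.93 in wild type. For nlp-34 the arrays gave 2.18, 2.19 and 1.75 in pqm-1, against 0.64, 3.99 and 0.49 in wild type, and it passed in neither strain. Replicate 2 of wild type was the highest for each of nlp-28 (2.23), nlp-29, nlp-30, nlp-31 (3.11), nlp-33 (1.10) and nlp-34. The same array was also the highest of its group for nlp-25 (3.81) and for the sperm genes (2.83). Without it nlp-29 (1.06, adjusted p = 0.0118) and nlp-30 (1.24, adjusted p = 0.0343) were no longer called in wild type. In pqm-1 nlp-29 and nlp-30 lost the call without any 1 array, at values of 1.59 to 1.81 for nlp-29 and 1.74 to 1.93 for nlp-30. Their standard deviations over the 3 pqm-1 arrays were 0.23 for nlp-29 and 0.19 for nlp-30, against a pooled SE of 0.38 and 0.45.

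The treated strains could not be ranked for these genes at 20 h. The 3 arrays of pqm-1 with CoCl2 against wild type with CoCl2 read 1.87, 0.05 and -1.63 for nlp-34, 1.38, 0.08 and -0.81 for nlp-30, 0.68, -0.13 and -0.74 for nlp-29 and 0.47, -0.28 and -0.76 for nlp-31. Each of these 4 genes was higher in pqm-1 on replicate 1 and lower on replicate 3. By contrast nlp-32, which lies on chromosome III, stayed between -0.33 and 0.21 on all 24 arrays. For nlp-33 the arrays read 0.81, 0.92 and 1.43 in pqm-1 (adjusted p = 0.000195), against 0.45, 1.10 and 0.17 in wild type (adjusted p = 0.0213).

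Of 13 genes known to control nlp-29 in the epidermis, 8 were higher with CoCl2 in pqm-1 at 20 h and 4 in wild type. Those higher in pqm-1 included dcar-1, which encodes a receptor upstream of nlp-29 (1.02 in pqm-1 and 0.80 in wild type), tir-1, a signaling adaptor (0.85 in pqm-1 and 0.61 in wild type), and snf-12, a transporter-like gene (1.08 in pqm-1, and 0.50 and not past the threshold in wild type). Among 10 related antimicrobial cnc genes 3 were higher in pqm-1 and 1 in wild type, near the share of all genes that were higher (22.8% in pqm-1 and 8.98% in wild type). Of 13 cuticle and epidermal genes 9 were higher and 1 lower in pqm-1, and 3 were higher and 1 lower in wild type. Array means of these cuticle genes lay between 0.62 and 1.05 in pqm-1 and between 0.12 and 0.22 in wild type, and their part in the epidermal nlp values was not tested.

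**Figure D5:**
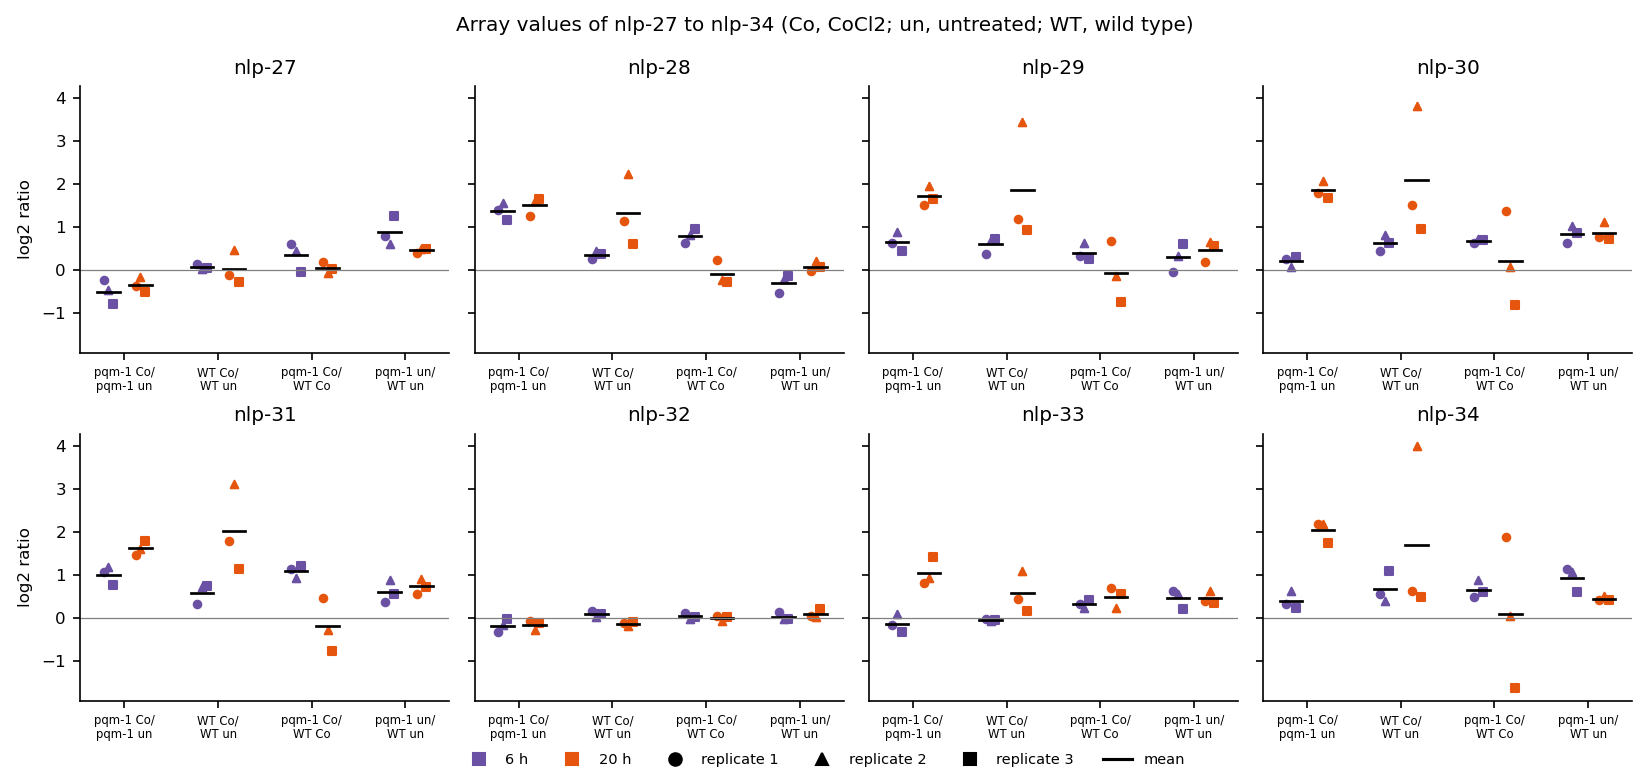
Log2 ratio on each array for nlp-27 to nlp-34 in the 4 comparisons at 6 h (purple) and 20 h (orange); symbols mark replicates 1 to 3 and lines the means. In wild type at 20 h replicate 2 lay at 3.81 for nlp-30, where the other arrays read 1.52 and 0.96.

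Members on the X chromosome were set beside those on all autosomes pooled. At 20 h 26 of 31 X-linked and 48 of 60 autosomal neuropeptide members were called in pqm-1, and 21 of 31 and 35 of 60 in wild type. Among all genes with a chromosome, 39.9% of X-linked and 39.3% of autosomal genes were called in pqm-1, and 22.2% and 17.6% in wild type. These shares lay above the 35.2% in pqm-1 and 15.9% in wild type over all genes tested, a set that includes genes without an assigned chromosome. Across the 8 comparisons 14 neuropeptide members were called in none, and the matching share of all genes was not counted.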

How the data were processed

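RNA of whole worms, linearly amplified from 100 ng, was hybridized to Agilent 4x44K two-color arrays and read by Feature Extraction 12.0.2.2. The deposited files hold spot and background intensity in each channel, and the log10 ratio that the scanner software computed. The authors also deposited a table of log2 ratios, which differs from the scanner ratio only in rounding and in the sign on 11 arrays. Array signals carry no read depth; 3 arrays per comparison limit the precision.

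Median spot intensities were background-corrected with normexp (offset 50) and loess-normalized within each array, turned by the strain and treatment fields and averaged over spots and probes to genes. Each of nlp-39, nlp-25, nlp-4, nlp-51, flp-18, flp-14 and flp-3 rests on 1 probe. Probes stayed in if either channel exceeded background on all arrays of some comparison. Comparisons were fitted with limma 3.58.1 in R 4.3.3 on the 12 arrays of a time (24 for differences between times) and adjusted over all genes by Benjamini-Hochberg, threshold 0.01. The steps were tested on simulated data. Sensitivity settings included SAM, the type of test in the study's methods. It was written anew here and run on the normalized gene means, so that its counts are not those of the study. The numbers of all genes that SAM called are not given here. Named genes were the 5 largest called rises and falls of each comparison, called differences between comparisons, and genes of known role. Array values of nlp-24 and nlp-51 and the plotted genes were chosen after values were seen. The members and all lists were chosen with earlier results of these data known. The label replicate 1b was taken as replicate 1.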

Additional observations from a re-analysis of the deposited data

Results flagged for a closer look

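Where the effect of CoCl2 differed between pqm-1 and wild type at 6 h in the test of that difference (limma, adjusted p below 0.01), the difference in log2 ratio was 1.14 for nlp-51, 1.09 for the epidermal gene nlp-28, 1.03 for nlp-2, 0.67 for flp-5, 0.64 for flp-27, 0.62 for flp-33, 0.55 for flp-14 and 0.54 for flp-9, each more positive in pqm-1. It was -1.27 for nlp-4 and -1.01 for nlp-24. None of these 10 genes passed with the difference taken within each replicate number (adjusted p between 0.026 and 0.188). At 20 h the difference was 0.60 for flp-6 and -1.96 for nlp-39.

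These members had a response that differed between the times by at least 2-fold in the test of that difference (limma, adjusted p below 0.01). In pqm-1 the log2 ratio of CoCl2 to untreated worms at 20 h exceeded that at 6 h by 1.21 for nlp-25, 1.19 for the epidermal gene nlp-33, 1.17 for flp-14, 1.11 for nlp-20, 1.07 for flp-18, 1.04 for flp-22, 1.03 for nlp-55 and 1.02 for nlp-71. In wild type it did so by 3.03 for nlp-39, 1.68 for nlp-25, 1.42 for the epidermal gene nlp-31, 1.29 for flp-14 and 1.07 for flp-18, while the difference was -1.43 for nlp-4 and -1.12 for nlp-24. For pqm-1 with CoCl2 against wild type with CoCl2 the log2 ratio changed by 2.16 for nlp-4, by -2.08 for nlp-39 and by -1.28 for nlp-31.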

How the results depend on the processing

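Counts below are neuropeptide members called, for the settings that moved them by over 1.5 times. At an adjusted p below 0.05 the response to CoCl2 at 6 h had 38 calls in pqm-1 (24 at the threshold used) and 9 in wild type (3). Of all 22067 genes 3862 passed in pqm-1 and 1354 in wild type. The strain difference without CoCl2 had 18 at 6 h (8) and 4 at 20 h (1), that with CoCl2 42 at 20 h (25), and the strain difference in the effect 20 at 6 h (9) and 9 at 20 h (2). Without CoCl2 4631 of all 22067 genes passed at 6 h and 1903 of 23058 at 20 h. With CoCl2 11836 of 23058 passed at 20 h, and for the effect 1397 passed at 6 h and 3716 at 20 h. The change over time had 59 in pqm-1 (38) and 20 between the treated strains (6), where 5481 and 6283 of all 21821 genes passed. With median centering the response had 2 in pqm-1 at 6 h and 8 in wild type at 20 h (56), the treated strains 9 at 6 h (37), the untreated strains 0 at 6 h and 0 at 20 h, the effect 0 at 6 h and 1 at 20 h, and the change over time 1 in pqm-1, 2 in wild type (35) and 2 between the treated strains. Its median SE at 20 h was 0.18, against 0.09 with loess. The scanner ratio and the authors' table gave the same counts: 13 for the untreated strains at 6 h and 5 at 20 h, 24 for the treated strains at 6 h and 15 at 20 h, and 19 for the change over time in pqm-1. Normexp with no offset gave 16 for the treated strains at 20 h, 4 for the effect at 6 h (2 up and 2 down) and 1 for it at 20 h. A dye term gave 11 for wild type at 6 h, 13 for the untreated strains at 6 h, 3 for them at 20 h and 5 for the effect at 20 h. The slide as a fixed block gave 46 for pqm-1 and 6 for wild type at 6 h, 35 for wild type at 20 h, 17 for the untreated strains at 6 h, and 18 at 6 h and 1 at 20 h for the effect. As a random block it gave 45 for pqm-1 and 11 for wild type at 6 h, 16 at 6 h and 2 at 20 h for the untreated strains, 22 at 6 h and 4 at 20 h for the effect, and 15 for the treated strains over time. SAM called 3 in pqm-1 at 6 h, 34 in wild type at 20 h, 1 at 6 h and 4 at 20 h for the untreated strains, 24 at 6 h and 38 at 20 h for the treated strains, and 23 at 6 h and 0 at 20 h for the effect. Testing each probe gave 2 for the untreated strains and 4 for the effect at 20 h, the strict filter on dim probes 3 for the treated strains over time, and the other pair of comparisons 4 at 6 h and 8 at 20 h for the effect. The causes were not tested.

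Deviations of same-numbered arrays correlated over 0.1 in all 3 pairs at 6 h where untreated wild type (0.23 to 0.38) or pqm-1 with CoCl2 (0.22 to 0.41) stood on the same side of both ratios, and below zero where wild type with CoCl2 stood on opposite sides (-0.42 to -0.35). They also lay below zero for the pairs of comparisons with no group in common (-0.67 to -0.21), and untreated pqm-1 on opposite sides gave -0.43 to 0.04. At 20 h they lay between -0.34 and 0.42. Whether same-numbered arrays held the same extract is not given in the sources used here. With the replicate number as a block, 5 members passed for the untreated strains at 6 h and 0 at 20 h, 19 for the treated strains at 6 h and 1 for the effect at 20 h. The block changed no other count by over 1.5 times. With the difference between comparisons taken within each replicate number, a setting chosen after seeing the data, 0 members passed for the effect at 6 h and 1 at 20 h; only 3 differences enter that fit.

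With 1 array left out, the response had 15 to 30 calls in pqm-1 and 2 to 3 in wild type at 6 h, and 59 to 71 in pqm-1 and 43 to 55 in wild type at 20 h. The treated strains had 24 to 24 at 6 h and 13 to 23 at 20 h, the untreated strains 3 to 5 at 6 h and 0 to 0 at 20 h, and the effect 3 to 10 at 6 h and 1 to 6 at 20 h. The change over time had 28 to 44 in pqm-1, 24 to 38 in wild type and 4 to 6 for the treated strains.

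With the dyes of the source names 0 members were called in every comparison, and the mean log2 of these genes changed sign. In pqm-1 at 6 h nlp-25 was at -0.53, nlp-2 -0.59, nlp-51 -0.55, flp-18 -0.47, flp-3 -0.52, nlp-24 0.26, nlp-28 -0.59, nlp-29 -0.36 and nlp-31 -0.50, and in wild type nlp-34 at -0.045. In wild type at 20 h nlp-28 was at -0.16, nlp-29 -0.44, nlp-30 -0.44 and nlp-31 -0.062. Between the treated strains at 6 h nlp-25 was at -0.42, nlp-51 -0.42, flp-18 -0.49, nlp-2 -0.38, flp-14 -0.31, nlp-4 0.15, nlp-56 0.41, nlp-24 0.11, nlp-20 0.051, nlp-79 0.13, nlp-28 -0.16, nlp-30 -0.22, nlp-31 -0.29 and nlp-34 -0.26. At 20 h nlp-4 was at -0.59, flp-5 -0.30, flp-18 -0.59, nlp-8 -0.26, flp-17 -0.46, nlp-39 0.36, nlp-56 0.29, nlp-5 0.12, nlp-89 0.12 and nlp-88 0.073. For the effect at 6 h flp-14 was at -0.32, flp-33 -0.16, flp-5 -0.33, flp-9 -0.28, nlp-2 -0.22, nlp-24 0.033 and nlp-51 -0.23.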
